A study of Mus musculus with 4 samples.

Results

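Imprinted genes, which many cells read from only the maternal or only the paternal copy, were followed through the stem cell, progenitor and neuroblast classes of the postnatal dorsal ventricular-subventricular zone (V-SVZ). The set is defined by gene name and not by a measured value. It holds 35 symbols of known mouse imprinted domains, and 34 of them have a row among the 31053 genes counted, Rian being the exception. Single cells were captured by the 10x droplet method from the dorsal V-SVZ microdissected from wild-type OF1 mice, an outbred strain, at postnatal day (P) 2, 12 and 22. Of the 4 libraries, 1 was made at P2, 2 at P12 (replicates 1 and 2) and 1 at P22, with no treatment and no engineered allele in any of them. The labels give male animals, whereas the study's methods state that a female was part of the P2 collection, and that the tissue of 2 mice was pooled at each time point. The replicate is therefore the library, and P2 and P22 each have a single one. The counts are totals over both parental copies, so that no value here measures which copy was read.

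Genomic imprinting is set in the germ line, where differential DNA methylation marks an imprinting control region on the copy from the mother or from the father. The mark is kept through later cell divisions in part by the zinc finger protein ZFP57, which binds the methylated form of a short motif. Imprinted genes lie in clusters, in which protein-coding genes are often read from the paternal copy and a long noncoding RNA from the maternal one, or the reverse. Many of them act on growth and on the brain, and the dose of Dlk1 and of the cell cycle inhibitor Cdkn1c is known to matter for adult neural stem cells of the mouse. Quiescent neural stem cells (qNSCs) of the V-SVZ enter the cycle as activated NSCs (aNSCs), become transit-amplifying progenitors (TAPs) and give rise to neuroblasts (NBs). Pallial marker genes go with the glutamatergic (GLU) lineage and subpallial ones with the GABAergic (GABA) lineage. The study also reports that some stem cells of pallial origin gain subpallial markers after birth. The regional names used below therefore stand for the markers a cell expresses and not for its origin.

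2 stretches are shown because results on the genes that start there recur through the comparisons. The first is the whole interval between the starts of Peg3 and Usp29, which face away from each other on chr7:6730420-6730582 and rose together in TAPs. The second is the 250 bases before the start of Meg3, on chr12:109540746-109540995, the member with the largest regional difference. Both are plus-strand RefSeq sequence of GRCm38.p6, written 5′ to 3′. Capitals mark TGCCGC, the ZFP57 motif, or its reverse complement GCGGCA, and TGACGTCA, the palindromic cyclic AMP response element.
Peg3 to Usp29: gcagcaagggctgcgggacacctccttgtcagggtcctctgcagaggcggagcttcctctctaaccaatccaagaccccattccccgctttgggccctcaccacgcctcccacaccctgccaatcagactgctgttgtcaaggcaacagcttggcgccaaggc
Meg3: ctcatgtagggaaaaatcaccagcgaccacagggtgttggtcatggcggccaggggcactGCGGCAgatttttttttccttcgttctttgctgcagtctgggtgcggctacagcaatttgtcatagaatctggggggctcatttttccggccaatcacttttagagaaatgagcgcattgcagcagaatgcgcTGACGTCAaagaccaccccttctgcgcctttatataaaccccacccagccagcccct
The stretch between Peg3 and Usp29 spans 163 bases with 5 CpG dinucleotides and 62.0% G and C, and holds neither motif. The Meg3 stretch has 10 CpG dinucleotides, 52.4% G and C and 1 match to each motif, which do not overlap. Promoter windows of 300 bases, 250 before and 50 after each start, were at hand for 30 of the members. On either strand TGCCGC stood in the windows of 12 of these 30 (Copg2, Grb10, Igf2, Meg3, Mest, Nap1l5, Nnat, Plagl1, Snrpn, Snurf, Zdbf2 and Zim1), against 11.6% of all 32851 windows and 13.1% of the 27025 genes. TGACGTCA stood in those of 4 (Meg3, Peg3, Usp29 and Zdbf2), against 1.79% of windows and 2.03% of genes. A match of letters is a description of the window and does not show that a factor binds there.

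Filters on genes per cell and mitochondrial share kept 4027 (P2), 7004 (P12 replicate 1), 4596 (P12 replicate 2) and 4230 (P22) cells, with medians of 14303, 11853.5, 13899.5 and 11996 unique molecular identifiers (UMIs), each of which stands for 1 captured RNA molecule. Only 3 to 8 barcodes were shared by any pair of libraries. The Cell Ranger version in the file headers was 3.1.0 at P12 and 5.0.1 at P2 and P22, so this version cannot be told apart from P12 against the other ages. Cells were clustered without the imprinted genes and without the regional genes, and clusters took their names from marker genes, so that qNSC, aNSC, TAP, NB and the glial names stand for cells like those types. The classes held 438, 3564, 2616 and 572 qNSCs at P2, P12 replicate 1, P12 replicate 2 and P22, and in the same order 371, 735, 268 and 542 aNSCs, 677, 1349, 518 and 916 TAPs, and 2042, 122, 15 and 1468 NBs. The 12 qNSC markers summed to 6909 to 16345 UMIs per 1000000 UMIs (CPM) in qNSCs and the 12 NB markers to 5924 to 11497 CPM in NBs of the libraries with at least 20 NBs, whereas the NB markers summed to 49.8 to 205 CPM in qNSCs. CPM refer to all UMIs of that class in that library, and comparisons between classes were made within libraries on summed UMIs. A gene is called changed where the p-value of edgeR's quasi-likelihood test, adjusted over all genes tested, is under 0.05.

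Detection differed widely within the set. Gnas, which encodes the stimulatory G protein alpha subunit, gave 414566 UMIs over all cells, Nnat, a small membrane protein of the endoplasmic reticulum, 217562, and the noncoding Meg3 84159. At the other end Snurf had 0 UMIs, and it lies on the same strand as Snrpn, which shares 9601 bases with it, so that their RNA cannot be separated. Phlda2, a growth-restraining gene of the placenta, had 2 UMIs, Rtl1, a retrotransposon-derived gene of the Dlk1 to Meg3 domain, had 20, Magel2 of the necdin family 32, and the growth factor gene Igf2 40. Zim1, Asb4, Magel2, Igf2, Rtl1, Phlda2 and Snurf passed the filter on low counts in no comparison between classes, Zim1 passing it only for age in qNSCs. Several members share bases with a neighbour on the opposite strand: Igf2r with Airn, Nnat with Blcap, Mest with Copg2, Kcnq1ot1 with Kcnq1, Nap1l5 with Herc3 and Gnas with Nespas. Whether reads were counted by strand is not given in the sources used here, so values within these pairs, and those of Snrpn, which shares 22570 bases on its own strand with Gm38393, carry that uncertainty.

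**Figure D1:**
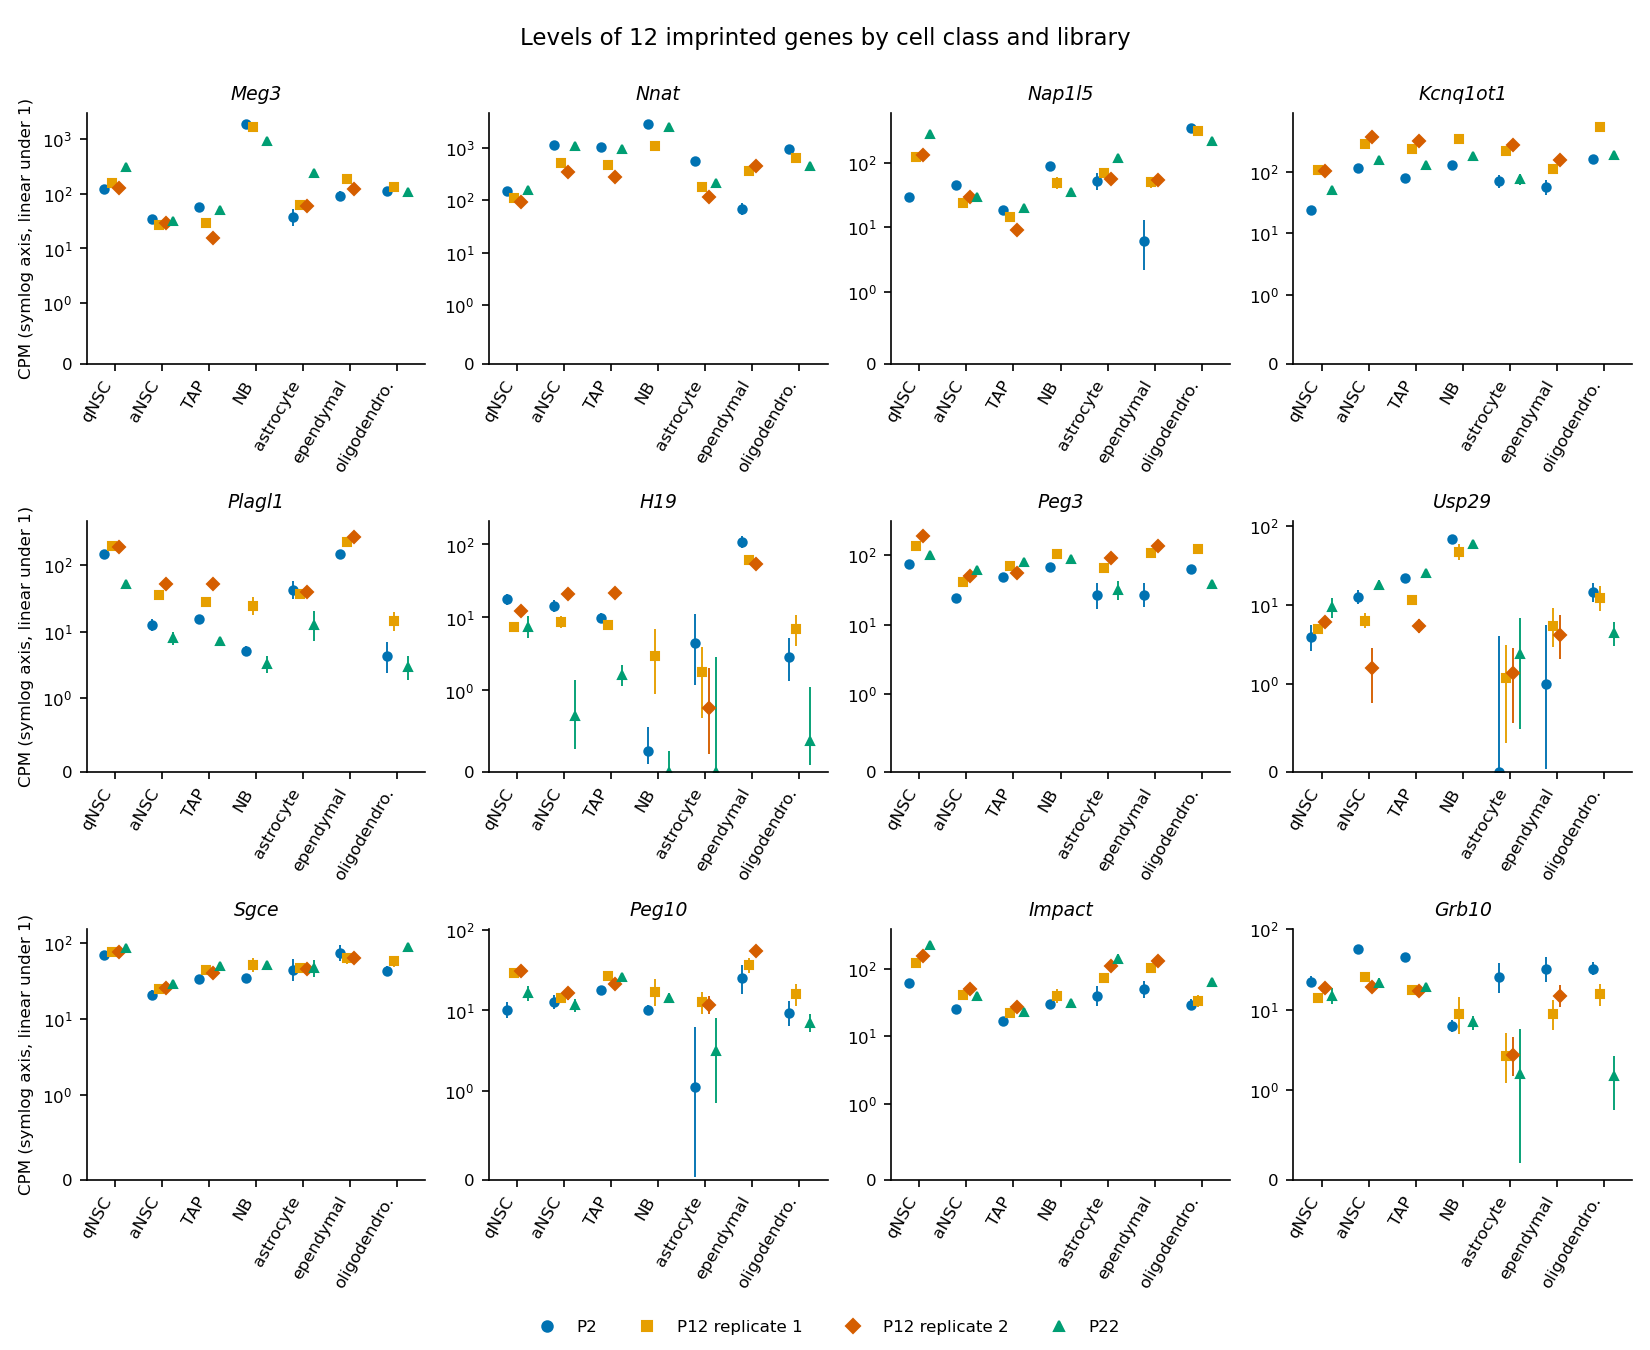
Levels of 12 imprinted genes in 7 cell classes. Each point is the CPM of a class in 1 library (circle P2, square P12 replicate 1, diamond P12 replicate 2, triangle P22), bars are exact 95% Poisson intervals for counting error only, the axis is logarithmic above 1 CPM and linear under 1, and classes under 20 cells are left out; Meg3 stands at 946 to 1886 CPM in NBs and Kcnq1ot1 lower in qNSCs than in aNSCs in every library.

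The step between quiescence and activation was asked first. Of 26 members tested in aNSCs against qNSCs, 11 fell and 4 rose, where 32.1% of all 13003 genes tested fell and 31.1% rose. The median log2 fold change was -0.576 over these members and -0.011 over all genes. Rasgrf1, Plagl1, Mirg, Meg3, Nap1l5, Impact, Sgce, Peg3, Ndn, Zdbf2 and Gnas fell in aNSCs, and Nnat, Kcnq1ot1, Grb10 and Ube3a rose. Rasgrf1 was under the filter on low counts in aNSCs of every library and entered the test through qNSCs alone, which leaves 10 other members that fell. In the per-library values that follow, the order is P2, P12 replicate 1, P12 replicate 2 and P22.

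Meg3, the maternally read noncoding RNA of the Dlk1 domain, had 34.4, 26.6, 29 and 32 CPM in aNSCs, against 122, 157, 126 and 317 CPM in qNSCs. The 4 aNSC values lay close together and under every qNSC value, with 30.5 ± 3.41 CPM in aNSCs and 181 ± 92.2 CPM in qNSCs (mean ± SD, n = 4 libraries each). The difference was past the threshold (log2 fold change -2.49, SE 0.24, adjusted p = 0.000147). It turned on which qNSCs were taken: against the 2 pallial qNSC clusters alone, with 18.4, 45.5, 15.3 and 33.5 CPM, the log2 fold change in aNSCs was 0.18 with adjusted p = 0.629. When both classes were limited to pallial-gated cells it was -2.31, and in subpallial-gated cells -2.97, both past the threshold. Mirg, a noncoding host of microRNAs in the same domain, had 0, 0.571, 1.15 and 0.487 CPM in aNSCs, against 1.11, 2.81, 3.73 and 5.54 CPM in qNSCs. Mirg was lower in aNSCs of each library, with ranges that overlapped across libraries (log2 fold change -2.62, SE 0.45, adjusted p = 0.00179). Dlk1, a membrane protein related to Notch ligands, was not past the threshold, with 1.02, 2.21, 5.45 and 4.29 CPM in aNSCs and 7.48, 4.33, 2.74 and 42.7 CPM in qNSCs (log2 fold change -1.52, SE 0.69, adjusted p = 0.0916). Its qNSC value at P22 stood far above those of the other libraries.

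Plagl1, a zinc finger transcription factor that restrains proliferation, had 12.7, 35.8, 52.6 and 7.89 CPM in aNSCs, against 147, 198, 191 and 53 CPM in qNSCs. Every aNSC value was under every qNSC value, although the P22 values of both classes were the lowest (log2 fold change -2.65, SE 0.24, adjusted p = 0.000115). Rasgrf1, an exchange factor that activates Ras, was at the edge of detection with 0, 0.214, 0.287 and 0.0975 CPM in aNSCs, which were 6 UMIs in all, against 3.60, 1.93, 3.09 and 3.56 CPM in qNSCs. Since Rasgrf1 could be tested only where qNSCs were high, these values are a description. Impact, an inhibitor of the amino acid sensing kinase GCN2, had 25, 41.4, 50.2 and 38.9 CPM in aNSCs, against 60.5, 122, 155 and 226 CPM in qNSCs (log2 fold change -1.78, SE 0.20, adjusted p = 0.000293). Sgce, which encodes epsilon-sarcoglycan, had 20.6, 24.9, 25.4 and 28.4 CPM in aNSCs, against 69.5, 75.2, 74.6 and 84.1 CPM in qNSCs (log2 fold change -1.65, SE 0.10, adjusted p = 3.01e-05). For both genes no aNSC value reached a qNSC value.

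Nap1l5, of the nucleosome assembly protein family, had 45.2, 23.6, 29.7 and 29.4 CPM in aNSCs, against 29.5, 121, 130.4 and 273 CPM in qNSCs. It was higher in aNSCs than in qNSCs at P2 and lower in the other 3 libraries (log2 fold change -1.91, SE 0.59, adjusted p = 0.0254). The call was lost without P12 replicate 1, P12 replicate 2 or P22, and without P2 the log2 fold change was -2.60. The zinc finger gene Peg3 had 24.3, 41.5, 50.8 and 60.6 CPM in aNSCs, against 75.1, 138, 189.8 and 99.9 CPM in qNSCs (log2 fold change -1.53, SE 0.21, adjusted p = 0.000674). Usp29, the deubiquitinase gene that starts beside it on the other strand, was not past the threshold (log2 fold change 0.36, SE 0.52, adjusted p = 0.561), nor was Peg10, a retrotransposon-derived gene that starts beside Sgce (log2 fold change -0.61, SE 0.24, adjusted p = 0.0624). Both neighbours thus had no call where Peg3 and Sgce fell.

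Among the members that rose, Nnat had 1096, 519, 339 and 1052 CPM in aNSCs, against 148, 110.2, 90.5 and 152 CPM in qNSCs. All aNSC values lay above all qNSC values (log2 fold change 2.42, SE 0.21, adjusted p = 8.91e-05). NB markers moved with it, as their 12 genes summed to 2858, 481, 239.8 and 3093 CPM in aNSCs and 205, 59.5, 49.8 and 149 CPM in qNSCs, and their part in the result was not tested. Blcap, in whose intron Nnat lies, had 42.4, 25.6, 26.2 and 27.8 CPM in aNSCs and 35.9, 30.4, 27 and 33.8 CPM in qNSCs and was not past the threshold (adjusted p = 0.488). Kcnq1ot1, the paternally read noncoding RNA that silences its neighbours, had 115, 283, 369 and 156 CPM in aNSCs, against 23.8, 107, 102 and 51.2 CPM in qNSCs (log2 fold change 1.74, SE 0.16, adjusted p = 0.00013). It was higher in aNSCs of every library, and no aNSC value was as low as any qNSC value. Grb10, an adaptor that restrains insulin and IGF1 receptor signaling, had 57.6, 25.7, 19.4 and 21.5 CPM in aNSCs, against 22.3, 13.9, 18.9 and 14.8 CPM in qNSCs (log2 fold change 0.69, SE 0.23, adjusted p = 0.033). The ranges overlapped, and the call of Grb10 was lost without P2, P12 replicate 1 or P22. Ube3a, a ubiquitin ligase that neurons read from the maternal copy, rose by less (log2 fold change 0.31, SE 0.11, adjusted p = 0.0368) and lost its call without P12 replicate 1, P12 replicate 2 or P22.

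Within the Snrpn to Ube3a domain the directions differed. Necdin (Ndn), a growth suppressor of the MAGE family, had 159, 111, 135 and 135 CPM in aNSCs, against 302, 179, 204 and 204 CPM in qNSCs, and fell without overlap (log2 fold change -0.73, SE 0.10, adjusted p = 0.000753), whereas Snrpn, a splicing protein of the brain, was not past the threshold (log2 fold change 0.32, SE 0.13, adjusted p = 0.0621). Zdbf2, a zinc finger gene, fell in each library (log2 fold change -0.62, SE 0.13, adjusted p = 0.00403), as did Gnas (log2 fold change -0.54, SE 0.12, adjusted p = 0.00677). The other 6 members tested, Airn, H19, Igf2r, Mest, Inpp5f and Copg2, had adjusted p from 0.0788 for Airn to 0.966 for Mest. Of the 15 calls of this comparison 11, with Rasgrf1 among them, held whichever single library was left out. Mirg did not pass the filter on low counts without P12 replicate 1. Rasgrf1 was under that filter, here 1.107 CPM, in aNSCs of every library and entered the test through qNSCs alone, so it is a description. Mirg was above the filter in aNSCs of P12 replicate 2 only and in qNSCs of every library, so its entry also rested on qNSCs. The other members that fell were above the filter in aNSCs of every library.

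**Figure D2:**
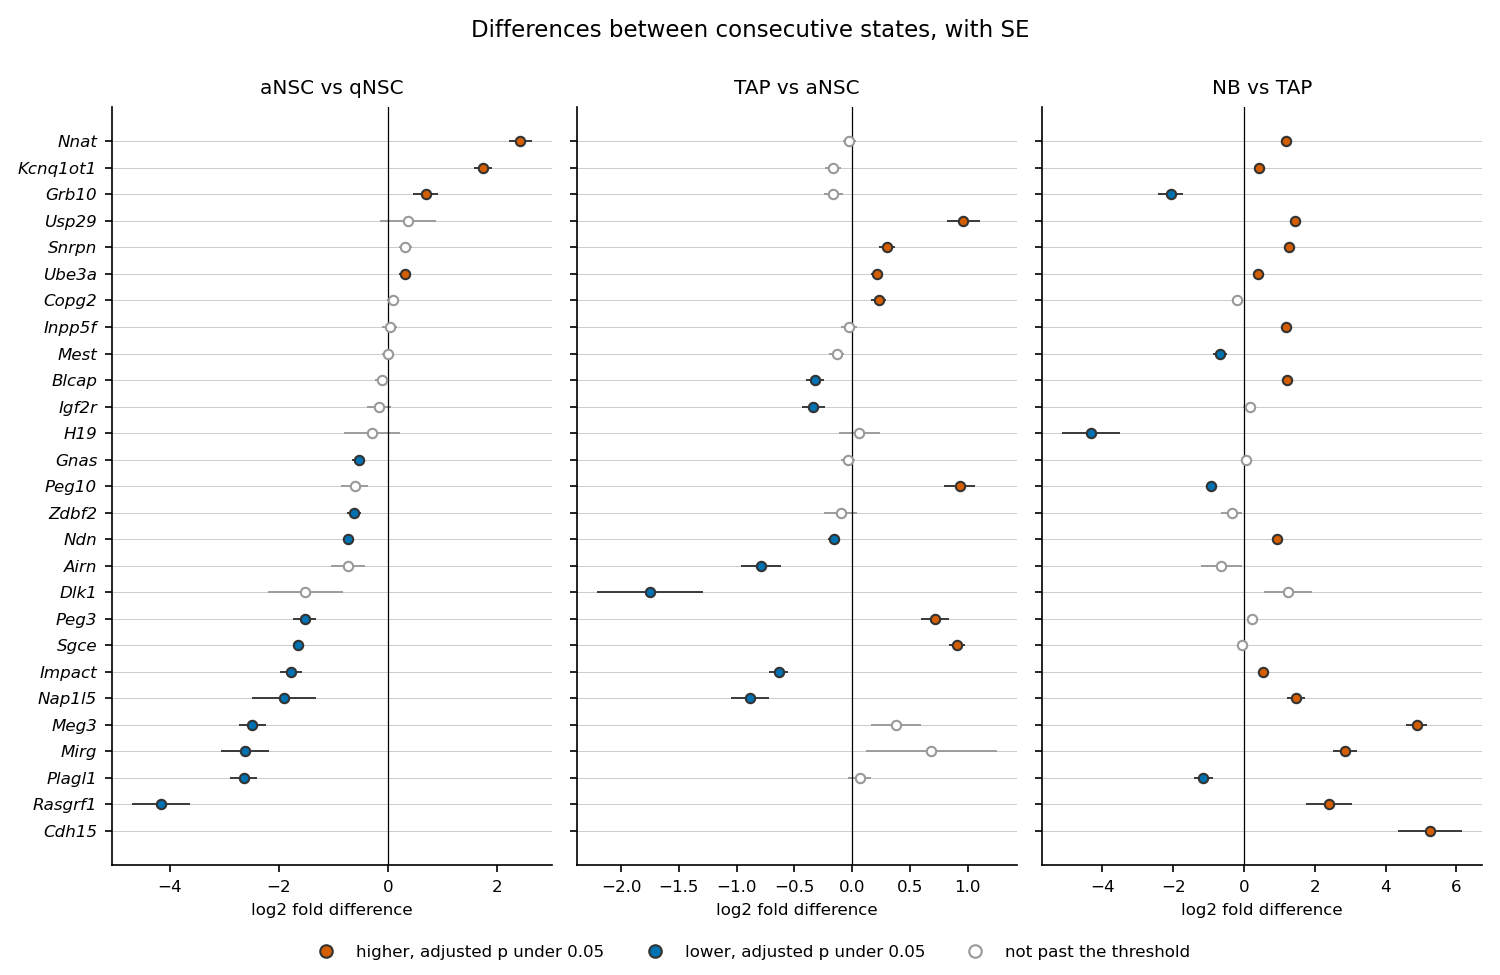
Log2 fold difference of each member tested, with its SE, in aNSCs against qNSCs, TAPs against aNSCs and NBs against TAPs. Filled points passed an adjusted p of 0.05 (orange higher, blue lower) and open points did not; Meg3 lies at -2.49 in the first panel and 4.88 in the last.

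TAPs were then set against aNSCs. Consecutive comparisons share a class, here the aNSCs, so that their values are not independent of each other. Of 25 members tested, 7 rose and 7 fell, where 25.4% of all 13324 genes rose and 23.7% fell, and the median log2 fold change was -0.028 over members and -0.004 over all genes. Usp29, Peg10, Sgce, Peg3, Snrpn, Copg2 and Ube3a rose in TAPs, and Dlk1, Nap1l5, Airn, Impact, Igf2r, Blcap and Ndn fell. This split depended on the scaling, since with plain library totals 4 rose and 13 fell and the median of all genes moved to -0.163, so that small differences are relative to that shift.

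The genes that start back to back moved together here. Peg3 had 48.7, 70.0, 55.4 and 80.3 CPM in TAPs, against 24.3, 41.5, 50.8 and 60.6 CPM in aNSCs (log2 fold change 0.72, SE 0.12, adjusted p = 0.00112). Usp29, which starts at the other end of the interval printed, had 21.8, 11.5, 5.38 and 25.5 CPM in TAPs, against 12.7, 6.36, 1.58 and 17.9 CPM in aNSCs (log2 fold change 0.96, SE 0.14, adjusted p = 0.000551). Both were higher in TAPs of all 4 libraries. Sgce had 33.6, 43.5, 40.2 and 49.5 CPM in TAPs, against 20.6, 24.9, 25.4 and 28.4 CPM in aNSCs (log2 fold change 0.91, SE 0.07, adjusted p = 8.5e-06). Peg10, which starts next to Sgce on the opposite strand, had 18, 26.9, 21.6 and 26.4 CPM in TAPs, against 12.7, 14.2, 16.3 and 11.6 CPM in aNSCs (log2 fold change 0.93, SE 0.13, adjusted p = 0.00045). For Sgce and Peg10 the groups did not overlap, and for Peg3 and Usp29 they did. When cells were assigned by single marker thresholds in place of clusters, the log2 fold changes of Sgce and Peg3 were -0.42 and -0.10, opposite in sign to those from clusters. Usp29 had no UMI in the microglia and endothelial classes, and Peg10 none in the endothelial class. In the microglia of P22, however, Peg10 stood at 28.999 CPM and Sgce at 105.91 CPM, above their TAP and aNSC levels in that library. Peg3 stood at 7.565 CPM there, under both of its levels. In endothelial cells of P12 replicate 2, Sgce had 4.221 CPM and Peg3 23.215 CPM, under their TAP and aNSC levels. The part of free RNA in the rises of Sgce and Peg10 was not tested.

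Snrpn had 122, 82.4, 50.6 and 133 CPM in TAPs, against 117, 64.6, 50.8 and 121 CPM in aNSCs, with a small rise (log2 fold change 0.30, SE 0.07, adjusted p = 0.00683) that was lost without P12 replicate 1. Copg2, a coatomer subunit of vesicle transport, had 31.7, 43.8, 37.1 and 38.4 CPM in TAPs, against 32.8, 41.6, 33.4 and 35.8 CPM in aNSCs (log2 fold change 0.23, SE 0.07, adjusted p = 0.0172). Its call was lost without P12 replicate 1, P12 replicate 2 or P22, and that of Ube3a (log2 fold change 0.22) without either P12 library. Dlk1 had 1.34, 0.676, 0.549 and 0.705 CPM in TAPs, against 1.02, 2.21, 5.45 and 4.29 CPM in aNSCs (log2 fold change -1.75, SE 0.46, adjusted p = 0.0116). It was lower in TAPs in 3 of 4 libraries, the P2 library being the exception, and the call was lost without P22. Nap1l5 had 18.5, 14.3, 8.96 and 19.5 CPM in TAPs, against 45.2, 23.6, 29.7 and 29.4 CPM in aNSCs, with no overlap (log2 fold change -0.89, SE 0.17, adjusted p = 0.00217). Impact had 17, 22, 27 and 22.9 CPM in TAPs, against 25, 41.4, 50.2 and 38.9 CPM in aNSCs, and so fell again at this step (log2 fold change -0.64, SE 0.08, adjusted p = 0.000203).

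Airn, the paternally read noncoding RNA that silences Igf2r in cis, had 2.01, 2.59, 3.57 and 1.19 CPM in TAPs, against 4.61, 4.71, 6.31 and 2.34 CPM in aNSCs (log2 fold change -0.79, SE 0.18, adjusted p = 0.00502). Igf2r, the receptor that clears IGF2, had 6.64, 12.5, 23.6 and 7.97 CPM in TAPs, against 9.86, 19.4, 29.4 and 11 CPM in aNSCs (log2 fold change -0.34, SE 0.10, adjusted p = 0.017). Both genes of the pair were lower in TAPs of every library, and the call of Igf2r was lost without P2 or P12 replicate 1. Their gene bodies overlap on opposite strands by 28354 bases. With marker thresholds the log2 fold changes of Igf2r and Airn were 0.31 and 0.02. Blcap fell (log2 fold change -0.32, SE 0.08, adjusted p = 0.00698), while Nnat had no call, with 1005, 463, 275 and 958 CPM in TAPs and 1096, 519, 339 and 1052 CPM in aNSCs (log2 fold change -0.02, SE 0.05, adjusted p = 0.743). Ndn fell by 0.16 on the log2 scale (adjusted p = 0.0355), a call lost without P2, P12 replicate 1 or P22.

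Meg3 and Mirg were not past the threshold in TAPs against aNSCs. Meg3 had 57.2, 29.9, 15.6 and 49.8 CPM in TAPs and 34.4, 26.6, 29 and 32 CPM in aNSCs (log2 fold change 0.38, SE 0.21, adjusted p = 0.171), and the groups overlapped. Mest, a putative hydrolase, fell short of the threshold (log2 fold change -0.14, SE 0.06, adjusted p = 0.11). The further members without a call were Kcnq1ot1, Grb10, Zdbf2, Gnas, Inpp5f, H19 and Plagl1, with adjusted p from 0.0715 to 0.798. Of the 14 calls, 8 held in every analysis with a library left out, and 9 members and 38.2% of all genes were called without P12 replicate 1.

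The largest differences of the set were those of NBs against TAPs. P12 replicate 2 held 15 NBs and was left out, so that the values are those of P2, P12 replicate 1 and P22. Of 27 members tested, 14 rose and 5 fell in NBs, where 23.7% of all 13708 genes rose and 24.8% fell. Cdh15 and Rasgrf1 were under the filter on low counts in TAPs of every library and entered the test through NBs alone, which leaves 12 other members that rose. The median log2 fold change was 0.415 over members and 0.019 over all genes. Meg3, Mirg, Nnat, Blcap, Snrpn, Ndn, Ube3a, Nap1l5, Usp29, Inpp5f, Impact, Kcnq1ot1, Rasgrf1 and Cdh15 rose, and H19, Grb10, Plagl1, Peg10 and Mest fell.

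Meg3 had 1886, 1689 and 946 CPM in NBs, against 57.2, 29.9 and 49.8 CPM in TAPs. The lowest NB value was many times the highest TAP value (log2 fold change 4.88, SE 0.29, adjusted p = 9.22e-05). Mirg had 6.61, 7.66 and 6.68 CPM in NBs, against 1.23, 0.617 and 0.749 CPM in TAPs (log2 fold change 2.86, SE 0.34, adjusted p = 0.00118). Both noncoding RNAs of the Dlk1 domain therefore rose in NBs without overlap. Dlk1 itself had 7.63, 0 and 1.12 CPM in NBs and 1.34, 0.676 and 0.705 CPM in TAPs, with no call (log2 fold change 1.24, SE 0.67, adjusted p = 0.17).

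Nnat had 2814, 1052 and 2468 CPM in NBs, against 1005, 463 and 958 CPM in TAPs (log2 fold change 1.19, SE 0.11, adjusted p = 0.00042). Blcap had 91.3, 44.2 and 47.6 CPM in NBs, against 28.9, 19.5 and 20.9 CPM in TAPs (log2 fold change 1.21, SE 0.14, adjusted p = 0.00102). Every NB value of both genes exceeded every TAP value. Snrpn had 381, 206 and 328 CPM in NBs, against 122, 82.4 and 133 CPM in TAPs (log2 fold change 1.27, SE 0.11, adjusted p = 0.000312). Ndn had 291, 186 and 211 CPM in NBs, against 131, 91 and 102 CPM in TAPs (log2 fold change 0.93, SE 0.09, adjusted p = 0.000472). These genes of the Prader-Willi domain rose together with Ube3a, whose rise was smaller (log2 fold change 0.41, SE 0.10, adjusted p = 0.0202) and was lost without P2 or P12 replicate 1.

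Usp29 had 69, 47.2 and 58.5 CPM in NBs, against 21.8, 11.5 and 25.5 CPM in TAPs, without overlap (log2 fold change 1.45, SE 0.16, adjusted p = 0.000805). Its neighbour Peg3 was not past the threshold, with 66.7, 103 and 88.6 CPM in NBs and 48.7, 70.0 and 80.3 CPM in TAPs (log2 fold change 0.23, SE 0.10, adjusted p = 0.108), so the pair had a shared call at the step to TAPs and a call of Usp29 alone at the step to NBs, a contrast that was not tested. Nap1l5 had 87.1, 48.3 and 35.4 CPM in NBs, against 18.5, 14.3 and 19.5 CPM in TAPs (log2 fold change 1.46, SE 0.26, adjusted p = 0.00489). In glutamatergic NBs alone Nap1l5 had 14.7 to 20.3 CPM, a range that overlapped that of TAPs, and in GABAergic NBs 36.5 to 101 CPM. Inpp5f, a phosphoinositide phosphatase, had 168, 143 and 118 CPM in NBs, against 53.8, 60.9 and 53.3 CPM in TAPs (log2 fold change 1.19, SE 0.12, adjusted p = 0.000705). Neither gene overlapped between the classes. Impact, the member that had fallen at both earlier steps, rose by 0.55 on the log2 scale (adjusted p = 0.016), a call lost without P2 or P12 replicate 1, and Kcnq1ot1 rose by 0.41 (adjusted p = 0.0118), lost without P2.

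2 of the members that rose in NBs were close to undetected before. Cdh15, which encodes M-cadherin, had 1.02, 0.589 and 0.632 CPM in NBs, against 0, 0.0294 and 0 CPM in TAPs. These are 34 UMIs in NBs and 1 UMI in TAPs, a ratio of levels of 64.2 with an exact 95% interval from 10.8 to 2610.0 that covers counting error only. Since Cdh15 could be tested only where NBs were high, these counts are a description, and it did not pass the filter without P2. Rasgrf1 had 1.10, 1.18 and 1.76 CPM in NBs, against 0.447, 0.0882 and 0.132 CPM in TAPs (log2 fold change 2.40, SE 0.66, adjusted p = 0.0252). Without P2 its log2 fold change was 3.53 and without P22 1.66, and the call of Rasgrf1 was lost without P12 replicate 1 or P22.

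H19, the maternally read noncoding RNA beside Igf2, had 0.254, 2.95 and 0 CPM in NBs, against 9.94, 7.85 and 1.63 CPM in TAPs (log2 fold change -4.32, SE 0.82, adjusted p = 0.00659). It was lower in NBs of each library, and the size of the difference varied, with log2 fold changes of -2.90 without P2 and -5.58 without P12 replicate 1. H19 was above the filter on low counts, here 0.492 CPM, in NBs of P12 replicate 1 only and in TAPs of every library. Its entry to the test thus rested on TAPs. Grb10 had 6.31, 8.84 and 6.96 CPM in NBs, against 45.8, 17.5 and 19.1 CPM in TAPs, without overlap (log2 fold change -2.07, SE 0.36, adjusted p = 0.00471), and -1.43 without P2. Peg10 had 10.2, 17.1 and 14.4 CPM in NBs, against 18, 26.9 and 26.4 CPM in TAPs (log2 fold change -0.94, SE 0.14, adjusted p = 0.00247), whereas with marker thresholds its log2 fold change was 1.11. Sgce, beside Peg10, was not past the threshold (log2 fold change -0.07, SE 0.10, adjusted p = 0.597). Plagl1 fell (log2 fold change -1.15, SE 0.28, adjusted p = 0.0163), lost without P22, and Mest fell (log2 fold change -0.67, SE 0.20, adjusted p = 0.036), lost without P2 or P22. Copg2, which overlaps Mest on the other strand, had no call (log2 fold change -0.19, SE 0.11, adjusted p = 0.208). Airn, Zdbf2, Gnas and Igf2r completed the members without a call. Of the 19 calls, 12 held whichever library was left out.

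Glial classes were compared with the stem cell state nearest to them. Astrocytes, of which there were 50, 253, 308 and 109 in the libraries in order of age and replicate, had 3 of 26 members higher and 14 lower than qNSCs, where 14.3% of all 12126 genes were higher and 14.4% lower, with a median log2 fold change of -0.605 over members and -0.005 over all genes. H19 had 4.41, 1.80, 0.782 and 0 CPM in astrocytes, against 17.7, 7.47, 12.3 and 7.52 CPM in qNSCs (log2 fold change -2.91, SE 0.40, adjusted p = 0.000694), and -2.32 without P12 replicate 2. Plagl1 had 43, 36.8, 39.5 and 12.6 CPM in astrocytes, against 147, 198, 191 and 53 CPM in qNSCs (log2 fold change -2.15, SE 0.12, adjusted p = 7.29e-06). Both were lower in astrocytes without overlap. Usp29 had 0, 1.20, 1.37 and 2.36 CPM in astrocytes, against 3.88, 4.99, 6.09 and 9.30 CPM in qNSCs (log2 fold change -2.11, SE 0.35, adjusted p = 0.00193), and Peg3 fell as well (log2 fold change -1.17, SE 0.12, adjusted p = 0.000166). Sgce (log2 fold change -0.67, SE 0.09, adjusted p = 0.000632) and Peg10 (log2 fold change -1.41, SE 0.20, adjusted p = 0.000815) were lower too, so that both back-to-back pairs were lower in astrocytes than in qNSCs. H19 was above the filter on low counts in astrocytes of P2 only, and Usp29 in those of P22 only. Both were above it in qNSCs of every library, so the entry of H19 and Usp29 to the test rested on qNSCs.

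Meg3 had 37.5, 63.5, 60.6 and 243 CPM in astrocytes, against 122, 157, 126 and 317 CPM in qNSCs (log2 fold change -0.98, SE 0.19, adjusted p = 0.00405), but with marker thresholds in place of clusters it was higher in astrocytes by 0.88 on the log2 scale. That opposite difference was also past the threshold in edgeR (adjusted p = 7.56e-06). Its fit lacked P2, where only 2 cells met the astrocyte thresholds, so the libraries of the fits differ. Mirg was lower (log2 fold change -1.93, SE 0.62, adjusted p = 0.0441), a call lost without either P12 library and not tested without P22, and Dlk1 had no call (log2 fold change -0.26, SE 0.40, adjusted p = 0.683). Grb10 had 25.4, 2.70, 2.74 and 1.58 CPM in astrocytes, against 22.3, 13.9, 18.9 and 14.8 CPM in qNSCs (log2 fold change -1.76, SE 0.43, adjusted p = 0.0144). It was lower in the 3 later libraries and not at P2, was -2.62 without P2, and lost its call without either P12 library. Kcnq1ot1 (log2 fold change 1.20, SE 0.14, adjusted p = 0.000291), Nnat (log2 fold change 0.90, SE 0.20, adjusted p = 0.00999) and Blcap (log2 fold change 0.54, SE 0.11, adjusted p = 0.00532) were higher in astrocytes of all 4 libraries. Nnat had 542, 176, 117 and 211 CPM in astrocytes, against 148, 110.2, 90.5 and 152 CPM in qNSCs, and its P22 astrocyte level was close to the 206 CPM of the microglia of that library. The 12 NB markers summed to 343, 110.2, 84.1 and 259 CPM in astrocytes and 205, 59.5, 49.8 and 149 CPM in qNSCs, and the 12 aNSC markers to 230.4, 375, 393 and 272 CPM in astrocytes and 94.3, 167, 177 and 167 CPM in qNSCs. Both sums were higher in astrocytes of each library, and their part in the result was not tested. The remaining calls were lower levels of Ndn, Nap1l5, Gnas, Impact and Snrpn in astrocytes, with log2 fold changes from -0.77 to -0.31, of which that of Gnas was lost without P12 replicate 2, that of Snrpn without either P12 library and that of Nap1l5 without P12 replicate 1, P12 replicate 2 or P22.

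Ependymal cells (47, 198 and 163 at P2, P12 replicate 1 and P12 replicate 2, with 17 at P22 left out) had 3 of 25 members higher and 4 lower than qNSCs, where 13.1% of all 12343 genes were higher and 10.3% lower. H19 had 109, 61 and 54.6 CPM in ependymal cells, against 17.7, 7.47 and 12.3 CPM in qNSCs of the same libraries (log2 fold change 2.55, SE 0.17, adjusted p = 1.63e-06). It was the clearest member of this comparison and did not overlap. Genes of the choroid plexus, a neighbouring epithelium, summed to 30.2, 65.3 and 91.4 CPM in ependymal cells and 7.20, 11.1 and 9.18 CPM in qNSCs, and their part in the result was not tested. Nap1l5 had 6.03, 49.4 and 53.8 CPM in ependymal cells, against 29.5, 121 and 130.4 CPM in qNSCs (log2 fold change -1.37, SE 0.13, adjusted p = 3.13e-05). These 2 calls held without any single library. Peg10 and Kcnq1ot1 were higher and Mest, Peg3 and Ndn lower, calls that were all lost without P12 replicate 2, those of Mest and Ndn also without P12 replicate 1. Without P12 replicate 2, 2 members and 10.8% of all genes were called, whereas 16 members and 28.8% of genes were called without P2.

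Cells of the oligodendroglial lineage (170, 119 and 392 at P2, P12 replicate 1 and P22) were set against aNSCs, and 4 of 24 members were higher and 2 lower, where 13.1% of all 12737 genes were higher and 10.1% lower. Nap1l5 had 346, 305 and 215 CPM in oligodendroglial cells, against 45.2, 23.6 and 29.4 CPM in aNSCs (log2 fold change 3.11, SE 0.23, adjusted p = 0.0036). Meg3 had 113, 134 and 107 CPM in oligodendroglial cells, against 34.4, 26.6 and 32 CPM in aNSCs (log2 fold change 1.88, SE 0.20, adjusted p = 0.00603). Both were far above every aNSC value and held without any single library. Sgce (log2 fold change 1.24, SE 0.20, adjusted p = 0.0158) and Snrpn (log2 fold change 0.66, SE 0.16, adjusted p = 0.0393) were higher and Mest (log2 fold change -1.72, SE 0.24, adjusted p = 0.0113) and Plagl1 (log2 fold change -1.48, SE 0.24, adjusted p = 0.0151) lower. These 4 calls were each lost without P2, when 3 members and 8.09% of all genes were called, and 3 members and 11% of genes were called without P12 replicate 1. Those of Sgce, Snrpn and Plagl1 were also lost without P12 replicate 1, and that of Snrpn without P22.

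Region was defined within each class by the study's gate, in which a pallial cell expresses at least 1 of Tbr1, Neurog2, Emx1, Neurod6 and Neurod1 without Gad1, Gsx2, Sp9, Dlx5, Dlx2 or Dlx6, and a subpallial cell the other way round. In qNSCs, 130, 1271, 1114 and 97 pallial cells were compared with 145, 337, 395 and 172 subpallial ones. Of 24 members tested, 2 were higher and 8 lower in pallial qNSCs, where 5.97% of all 11327 genes were higher and 6.46% lower. Meg3, Dlk1, H19, Usp29, Peg3, Mest, Snrpn and Zdbf2 were lower and Kcnq1ot1 and Grb10 higher. The median log2 fold change was -0.065 over members and 0.009 over all genes.

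Meg3 had 35.5, 48.1, 24.1 and 30.4 CPM in pallial qNSCs, against 215, 383, 360.1 and 473 CPM in subpallial qNSCs. Every subpallial value was several times the highest pallial one (log2 fold change -3.34, SE 0.18, adjusted p = 6.67e-07). The 12 NB markers summed to 218, 54.6, 53.6 and 136 CPM in pallial qNSCs and 190.3, 67.1, 44.2 and 151 CPM in subpallial qNSCs. These markers pool the glutamatergic and GABAergic NBs, and their part in the result was not tested. Dlk1, from the same domain, had 0.935, 2.26, 0.633 and 1.32 CPM in pallial qNSCs, against 11.7, 12.1, 7.60 and 59.7 CPM in subpallial qNSCs (log2 fold change -3.15, SE 0.31, adjusted p = 6.73e-05), and -3.89 without P12 replicate 1. The Dlk1 level in subpallial qNSCs was highest at P22, and no pallial value overlapped. Dlk1 was under the filter on low counts in pallial qNSCs of every library and entered the test through subpallial qNSCs alone, which leaves 7 other members that were lower. Mirg, Rtl1 and Rasgrf1 did not pass the filter on low counts in this comparison.

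H19 had 3.27, 5.0, 5.49 and 2.65 CPM in pallial qNSCs, against 36.8, 11.6, 27.4 and 6.31 CPM in subpallial qNSCs, without overlap (log2 fold change -2.10, SE 0.26, adjusted p = 0.000314). Markers of ependymal cells, a class in which H19 was high, summed to 161, 267, 229.6 and 202 CPM in pallial and 366, 345, 401 and 311 CPM in subpallial qNSCs, and their part in the result was not tested. Usp29 had 4.68, 3.20, 4.15 and 7.94 CPM in pallial qNSCs, against 6.07, 12.4, 11.1 and 11.5 CPM in subpallial qNSCs (log2 fold change -1.40, SE 0.26, adjusted p = 0.00389). Peg3 had 62.7, 126, 173 and 58.2 CPM in pallial qNSCs, against 107, 166, 237 and 134 CPM in subpallial qNSCs (log2 fold change -0.58, SE 0.10, adjusted p = 0.00218). Both genes of the pair were lower in pallial qNSCs of all 4 libraries, with ranges that overlapped, and the call of Usp29 was lost without P12 replicate 1.

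Kcnq1ot1 had 29.9, 119, 131 and 108 CPM in pallial qNSCs, against 16.2, 59.4, 26.3 and 39.6 CPM in subpallial qNSCs (log2 fold change 1.53, SE 0.19, adjusted p = 0.000282). Grb10 had 29, 15.2, 22.9 and 21.2 CPM in pallial qNSCs, against 17, 9.99, 12.8 and 12.1 CPM in subpallial qNSCs (log2 fold change 0.75, SE 0.13, adjusted p = 0.00291), lost without P12 replicate 2. Both were higher in the pallial cells of each library. Mest (log2 fold change -0.49, SE 0.12, adjusted p = 0.0188), Snrpn (log2 fold change -0.36, SE 0.09, adjusted p = 0.023) and Zdbf2 (log2 fold change -0.35, SE 0.10, adjusted p = 0.0329) were lower by small amounts, and each of these calls was lost without either P12 library. The other 14 members tested had adjusted p from 0.0732 for Impact to 0.777 for Ndn. With P12 replicate 1 left out, 6 members and 7.0% of all genes were called, and with P12 replicate 2 left out 6 members and 5.07% of genes.

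**Figure D3:**
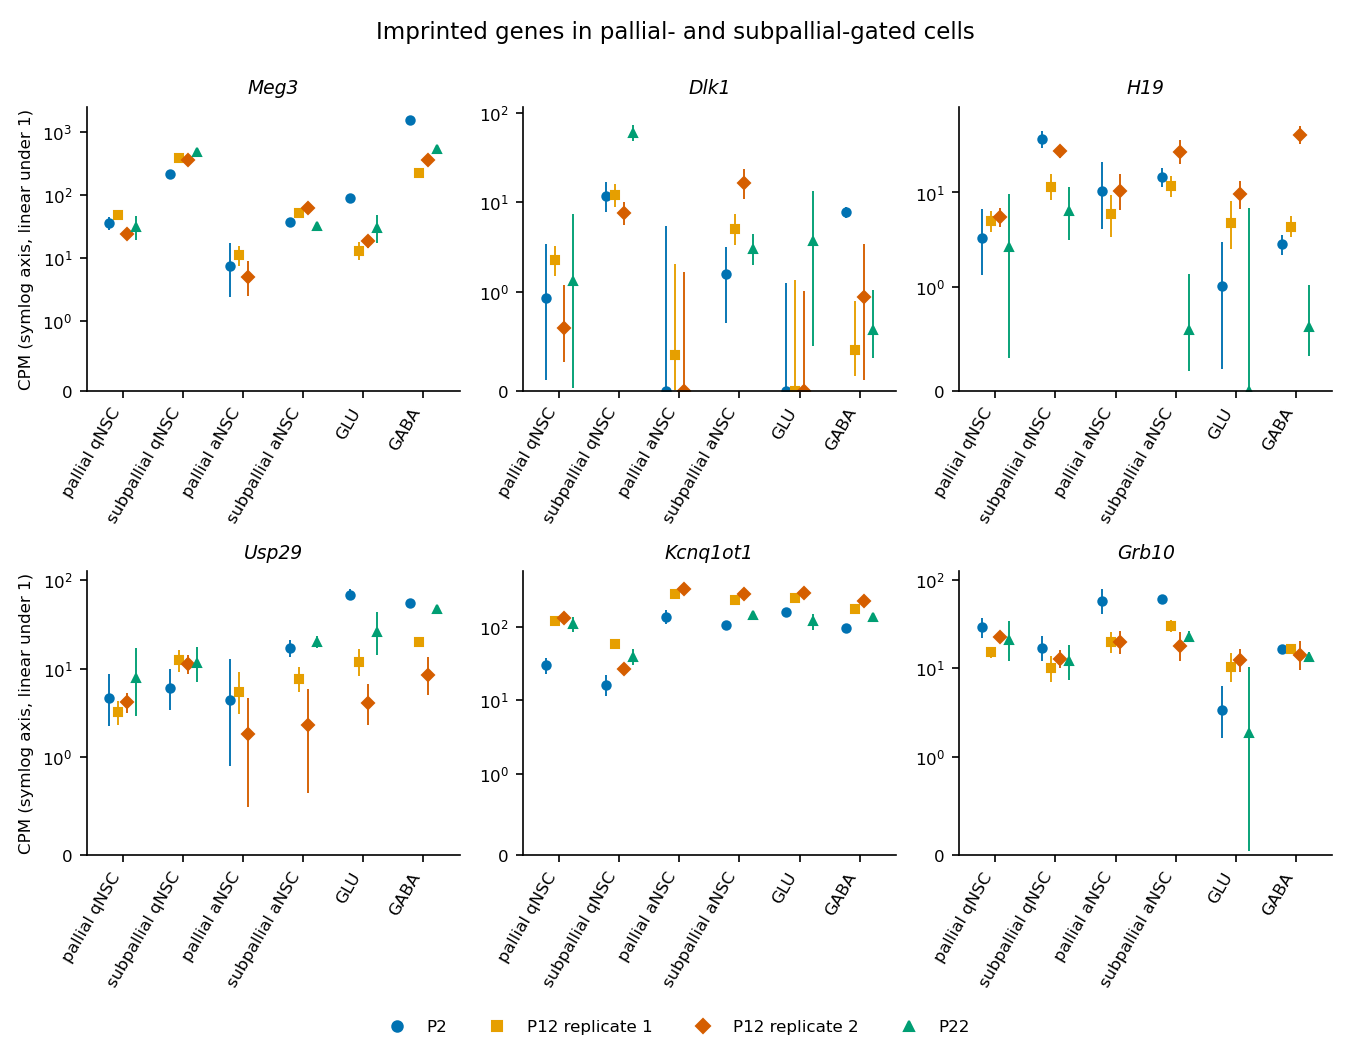
Levels of 6 imprinted genes in pallial- and subpallial-gated qNSCs and aNSCs and in GLU and GABA cells. Points are CPM in 1 library (symbols as in the plot of levels by class), bars are exact 95% Poisson intervals, and the axis is logarithmic above 1 CPM and linear under 1; Meg3 is lower on the pallial side in every library and in each of the 3 pairs of groups, and Kcnq1ot1 is higher in pallial than in subpallial qNSCs.

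In aNSCs the gates left 30, 141 and 87 pallial cells and 247, 272 and 63 subpallial cells at P2, P12 replicate 1 and P12 replicate 2, the 19 pallial aNSCs at P22 being too few. Of 23 members tested, 1 was lower and 0 were higher in pallial aNSCs, where 0.328% of all 10981 genes were lower and 0.61% higher. An unadjusted p under 0.05 was found for 6 of the 23 members and 1356 of the 10981 genes. With DESeq2 2 members and 0.724% of genes were called. Meg3 was the call, with 7.33, 11 and 4.95 CPM in pallial aNSCs, against 37.5, 50.8 and 62.5 CPM in subpallial aNSCs (log2 fold change -2.78, SE 0.28, adjusted p = 0.00192). It did not overlap and held without any single library, and 3 members and 4.24% of all genes were called without P2. H19 had 10.3, 5.85 and 10.4 CPM in pallial aNSCs and 14.7, 11.8 and 27.2 CPM in subpallial aNSCs, again lower in each library, but was not past the threshold (log2 fold change -1.13, SE 0.28, adjusted p = 0.134). Kcnq1ot1 (log2 fold change 0.21, SE 0.12, adjusted p = 0.509) and Usp29 (log2 fold change -0.97, SE 0.43, adjusted p = 0.404) were not either.

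Among TAPs and NBs, the gates gave 221, 138, 125 and 39 GLU cells and 1840, 632, 61 and 1707 GABA cells. Of 22 members tested, 3 were lower and 0 higher in GLU cells, where 3.26% of all 11145 genes were lower and 4.58% higher, and 8 members had an unadjusted p under 0.05. DESeq2 called 6. Meg3 had 89.2, 13, 18.5 and 29.8 CPM in GLU cells, against 1529, 224, 364 and 540.3 CPM in GABA cells (log2 fold change -4.31, SE 0.10, adjusted p = 5.62e-06). No GLU value reached the lowest GABA value, and the log2 fold change lay between -4.33 and -4.28 with any library left out. NBs made up different shares of the groups, with NB markers summing to 5155, 1260.0, 798 and 3317 CPM in GLU cells and 9326, 3612, 904 and 7960.1 CPM in GABA cells. Within NB clusters alone, Meg3 had 150.5, 22.1 and 61.8 CPM in glutamatergic NBs at P2, P12 replicate 1 and P22, against 2249.9, 3598 and 991 CPM in GABAergic NBs, with a log2 fold change of -4.99. The fit within NBs used clusters in place of gates and fewer libraries, so its log2 fold change and the -4.31 above are not like for like. The part of the NB shares in the result was not tested.

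Nap1l5 had 22.9, 14.1, 7.91 and 14.9 CPM in GLU cells, against 75.3, 16.8, 17.4 and 26.3 CPM in GABA cells (log2 fold change -1.18, SE 0.26, adjusted p = 0.0411). Snrpn had 252, 90.1, 59.2 and 197 CPM in GLU cells, against 323, 110.0, 64.6 and 244 CPM in GABA cells (log2 fold change -0.43, SE 0.10, adjusted p = 0.0424). Both were lower in GLU cells of each library, and both calls were lost without P2, P12 replicate 1 or P22. Without P12 replicate 2, whose GABA group is the smallest, 11 members and 13.1% of all genes were called. Without P12 replicate 1 it was 1 member and 1.65% of genes, and without P22 1 member and 1.80% of genes. Dlk1 did not pass the filter on low counts. A test of whether the regional difference itself differed between GLU and GABA cells and qNSCs called 0 of 25 members in edgeR, where 0.643% of all 12441 genes were higher and 0.297% lower. In this test 4 of the 25 members (Grb10, Zdbf2, Kcnq1ot1 and Peg10, named after their values were seen) had an unadjusted p under 0.05. So did 1611 of the 12441 genes. Without P12 replicate 2, 1 member and 1.07% of all genes were called.

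Free RNA in the droplets can add to these levels, and the microglia and endothelial classes were read as a guide to it. Whether these cells transcribe Meg3 or Nnat themselves was not tested, so their levels need not be free RNA. The endothelial class also held erythroid markers in both P12 libraries and TAP markers at 1602 CPM in P12 replicate 2. Meg3 stood at 76.9 CPM in the 75 microglia of P22, which is above its level in the pallial qNSCs, the aNSCs, the TAPs and the GLU cells of that library. In P12 replicates 1 and 2 the microglia, 8 and 10 cells, had 0 and 5.66 CPM of Meg3, with counting intervals up to 45.7 and 31.6 CPM. Endothelial cells, 18 and 29 in these libraries, had 58.8 and 40.1 CPM, above the pallial qNSCs, aNSCs, TAPs and GLU cells of each. In pallial qNSCs, aNSCs, TAPs and GLU cells Meg3 was therefore not above both classes in any library that held them, and differences between these groups, or folds of Meg3 against them, compare measured levels that may include background. Subpallial aNSCs, with 50.8 and 62.5 CPM at P12, lay within or under the endothelial counting intervals of 28.2 to 108 and 24.1 to 62.6 CPM. Nnat stood at 206 CPM in the P22 microglia, above its 152 CPM in qNSCs of that library. NBs and subpallial qNSCs lay above the microglial and endothelial levels of Meg3 at P12 and P22, and at P2 no microglia were found.

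No member changed with age past the threshold. A slope over the 4 libraries, with postnatal day as a number, was fitted for 28 members in qNSCs, 24 in aNSCs and 25 in TAPs, and edgeR called 0 in each, as it called 0 (0%) of all 14400, 12945 and 13708 genes. At an unadjusted p under 0.05 there were 4, 1 and 0 members, beside 765, 117 and 85 of all genes. DESeq2 called 1, 0 and 0 members, and 0.686%, 0.0301% and 0.0874% of genes. The counts turned on single libraries, and the share of all genes called moved with them. Without P22, 13 members and 30.6% of all genes were called in qNSCs, 12 members and 24% of genes in aNSCs, and 4 members and 1.51% of genes in TAPs. Without P2, 9 members and 15.2% of genes were called in qNSCs, 6 and 18.1% in aNSCs and 5 and 2.62% in TAPs. Without P12 replicate 2, 2 members and 1.05% of genes were called in qNSCs. The design cannot separate age from the single libraries of P2 and P22.

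The values in qNSCs are therefore a description, and the genes were named after their unadjusted p were seen. Nap1l5 had 29.5, 121, 130.4 and 273 CPM in qNSCs at P2, P12 replicate 1, P12 replicate 2 and P22 (slope 1.58 log2 units per 10 days, SE 0.29, adjusted p = 0.35). Impact had 60.5, 122, 155 and 226 CPM (slope 0.93, SE 0.27, adjusted p = 0.644), and Mirg had 1.11, 2.81, 3.73 and 5.54 CPM (slope 1.12, SE 0.38). All 3 genes were lowest at P2 and highest at P22. Airn had 16.1, 4.68, 7.37 and 4.55 CPM (slope -0.98, SE 0.33), with the highest level at P2. In aNSCs Peg3 had 24.3, 41.5, 50.8 and 60.6 CPM (slope 0.64, SE 0.21, adjusted p = 1). Mest, high in fetal tissues, had 91, 33, 30.6 and 35.4 CPM in qNSCs and 82.8, 37.7, 28 and 39.7 CPM in aNSCs, with its highest level at P2 in both.

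**Figure D4:**
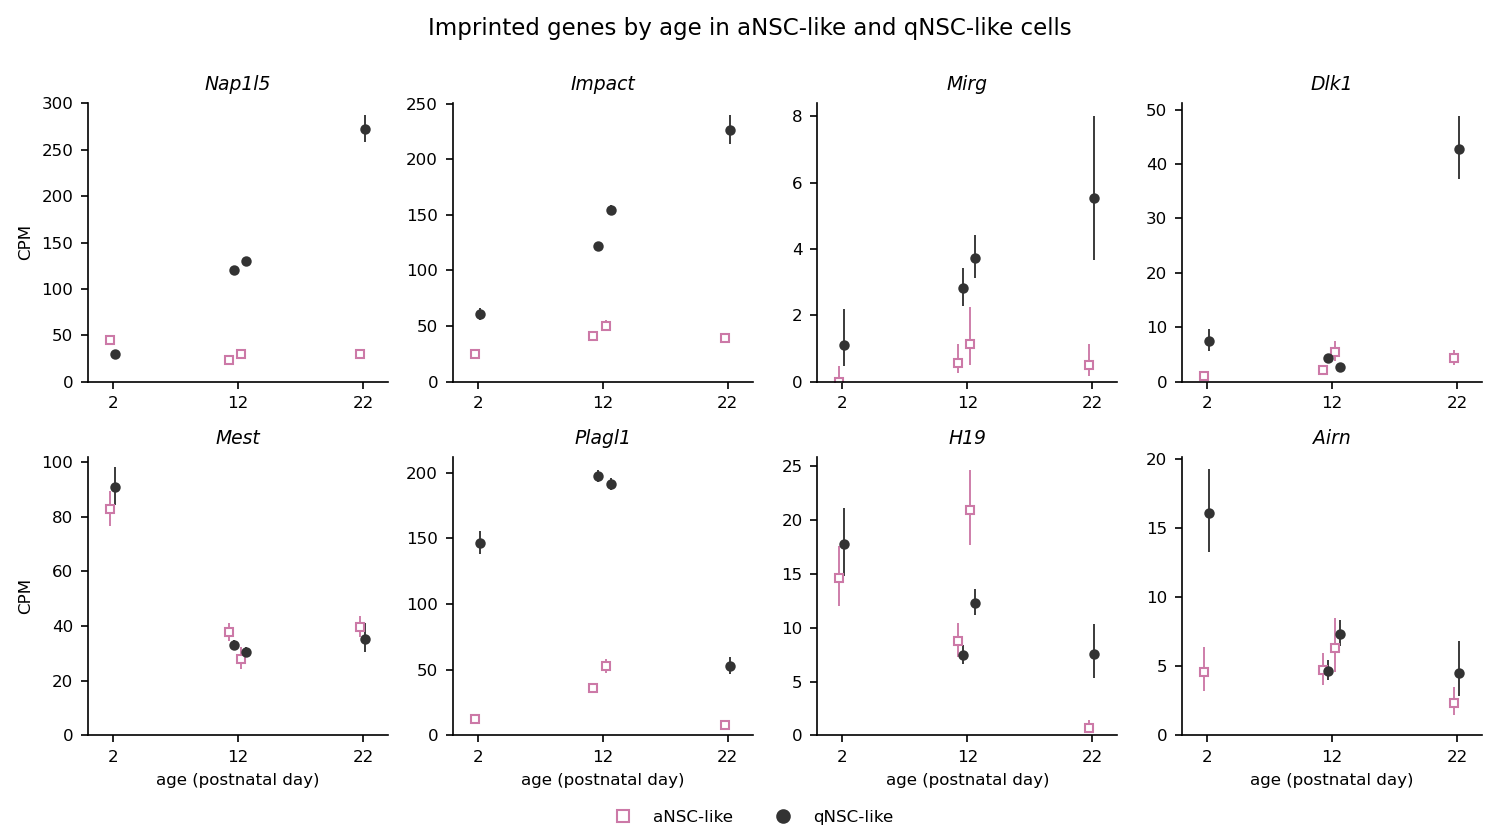
CPM of 8 imprinted genes against postnatal day in aNSCs (open squares) and qNSCs (filled circles), 1 point per library with its exact 95% Poisson interval, on a linear axis that starts at 0. Nap1l5 stands at 29.5 CPM in qNSCs at P2 and 273 CPM at P22; no slope passed the threshold.

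A second list held 42 imprinted genes outside the set, 40 of which have a row. In aNSCs against qNSCs 24 of them were tested, with 11 higher and 8 lower, where 31.1% of all genes were higher and 32.1% lower. Cdkn1c, which encodes the cyclin-dependent kinase inhibitor p57, had 51.2, 28.1, 4.02 and 32.3 CPM in aNSCs, against 0.831, 0.716, 0.175 and 1.58 CPM in qNSCs (log2 fold change 5.06, SE 0.28, adjusted p = 2.14e-05). Smoc1, a secreted calcium-binding protein, had 44.4, 27.1, 22.9 and 23.6 CPM in aNSCs, against 5.26, 0.882, 1.25 and 2.97 CPM in qNSCs (log2 fold change 3.83, SE 0.33, adjusted p = 9.74e-05). Begain, a gene next to Dlk1, rose as well (log2 fold change 3.40, SE 0.36, adjusted p = 0.000214). These 3 rose without overlap. Cdkn1c was above the filter on low counts, here 1.107 CPM, in qNSCs of P22 only and in aNSCs of every library. Its entry to the test thus rested on aNSCs. This was not worked out for every gene of the second list. In pallial against subpallial aNSCs Cdkn1c was the 1 of 19 genes called, with 14.7, 9.14 and 2.25 CPM in pallial aNSCs, against 58.7, 44.3 and 5.20 CPM in subpallial aNSCs (log2 fold change -2.15, SE 0.25, adjusted p = 0.00495). Of all genes, 0.61% were higher and 0.328% lower there. In pallial against subpallial qNSCs Dio3, the enzyme that inactivates thyroid hormone at the far end of the Dlk1 domain, was the 1 of 16 called (log2 fold change -1.26, SE 0.30, adjusted p = 0.0161). In that comparison 5.97% of all genes were higher and 6.46% lower.

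In TAPs against aNSCs 6 of 23 genes of this list rose and 7 fell, led by Osbpl5 (-1.20), Smoc1 (-1.17) and Begain (0.79) on the log2 scale. These counts are near the shares of all genes, of which 25.4% rose and 23.7% fell. In NBs against TAPs 10 of 25 rose and 7 fell, where 23.7% of all genes rose and 24.8% fell. Peg12, a paternally read gene of the Prader-Willi domain, had 0.89, 2.95 and 0.281 CPM in NBs, against 19.4, 16.5 and 9.82 CPM in TAPs (log2 fold change -4.38, SE 0.41, adjusted p = 0.000467), opposite to Snrpn and Ndn of that domain. Atp10a, a lipid transporter of the same region, had 3 UMIs in NBs and 200 UMIs in TAPs, a ratio of levels of 0.0283 with an exact 95% interval from 0.00579 to 0.084. Its entry to the test rested on TAPs, so these counts are a description. Pon2, a paraoxonase, fell too (log2 fold change -2.65, SE 0.37, adjusted p = 0.00203). Of the glial comparisons, 1 of 19 was higher and 4 lower in astrocytes than in qNSCs (14.3% and 14.4% of all genes). In ependymal cells 1 of 19 was higher and 1 lower than in qNSCs (13.1% and 10.3% of all genes). In oligodendroglial cells 5 of 24 were higher and 2 lower than in aNSCs (13.1% and 10.1% of all genes). The largest of these glial differences was Qpct, a glutaminyl cyclase, with 90.7, 86.8 and 106 CPM in oligodendroglial cells, against 6.02, 2.29 and 3.80 CPM in aNSCs (log2 fold change 4.59, SE 0.33, adjusted p = 0.00334). In GLU against GABA cells 1 of 21 was higher, Osbpl5 (1.74), and 1 lower, Qpct (-1.99), where 4.58% of all genes were higher and 3.26% lower. With age none was called.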

How the data were processed

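Dorsal V-SVZ cells of OF1 mice were profiled by 10x Genomics chemistry V3 in 4 libraries. The deposited UMI counts were made by the authors with Cell Ranger (3.1.0 for P12 and 5.0.1 for P2 and P22, per the file headers) against mm10, as whole numbers for called cells without normalization. The UMI totals were 66743936 at P2, 106402687 and 80386488 in P12 replicates 1 and 2 and 65323423 at P22, in 4608, 8617, 6400 and 4880 barcodes. Log-normalized values were computed here only for clustering and gates.

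Kept cells had 2000 to 8000 genes and no more than 10% mitochondrial UMIs. P12 cells were clustered with Seurat 5.3.0 (R 4.3.3; 2000 variable genes, 20 components, resolution 0.5), with 85 members, other imprinted and gate genes held out, and P2 and P22 cells took labels by transfer. Clusters were named from marker lists. Clusters 0, 1 and 2 are qNSCs, 6 and 8 aNSCs, 3 and 5 TAPs and 12 and 13 NBs; gates used a log value above 0.25, and GLU and GABA cells are gated TAPs and NBs without an Olig1 or Olig2 UMI. Scrublet in scanpy 1.11.5 called 42, 108, 3 and 47 doublets, which were kept; leaving out the 5% highest scores was an alternative.

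UMIs were summed per class and library with at least 20 cells. Main tests used edgeR 4.0.16 (TMM, filterByExpr, quasi-likelihood, library as block) on the 2 classes compared, with Benjamini-Hochberg adjustment over all genes and a threshold of 0.05; ages were fitted as a slope, and the regional interaction in 1 model. DESeq2 1.42.0, RLE scaling, plain totals, no filter, no block, a narrower cell filter (2500 to 7500 genes), single marker thresholds and each library left out were alternatives. The edgeR script was tested on simulated data with 200 changed genes. Intervals are exact 95% Poisson intervals from SciPy 1.17.1 and cover counting error only. P-values between classes set the class difference within libraries against its variation from library to library, over libraries of different ages. Those of age set the slope against the spread of libraries around it. The classes within 1 library share their animals.

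Values per library are printed for up to 6 higher and 6 lower called members with the largest log2 fold change in a comparison and for their domain neighbours, and up to 3 genes of the other imprinted list are named; a member under 3 UMIs in every library is not detected at this depth. The members and lists were chosen with earlier results of these data known. Gene coordinates follow GENCODE M21 on GRCm38 and sequences RefSeq on GRCm38.p6.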

Additional observations from a re-analysis of the deposited data

Results flagged for a closer look

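A member is given here where the exact Poisson intervals of both classes lay apart in one direction in the library or libraries of one age and in the opposite direction at another age. These intervals cover counting error only. None of these differences between ages was tested, and most rest on 1 library. All values are log2 differences of CPM in the library named. Nap1l5 was higher in aNSCs than in qNSCs at P2 (0.62) and lower at P12 and P22. It was also higher in astrocytes than in qNSCs at P2 (0.81) and lower later, and higher in pallial than in subpallial qNSCs at P22 (0.40) but lower at P2. Dlk1 was higher in astrocytes than in qNSCs at P22 (0.58) and lower at P12. Nnat was higher in ependymal cells than in qNSCs at P12 (1.98, the mean of both libraries) and lower at P2. Usp29 was higher in GLU than in GABA cells at P2 (0.30) and lower at P22.

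In oligodendroglial cells against aNSCs, 6 members differed between ages in this way. Peg3 (-0.66) and Ube3a (-0.18) were lower at P22 and higher before. Usp29 was higher at P12 (0.94) and lower at P22, and Nnat was higher at P12 (0.26) and lower at P2 and P22. Gnas (0.15) and Zdbf2 (0.98) were higher at P2 and lower at P22.

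2 members stood out in endothelial cells, a class of 18, 29 and 17 cells at P12 replicate 1, P12 replicate 2 and P22 that entered no comparison. This class also held erythroid markers, which summed to 90063 and 23481 CPM in P12 replicates 1 and 2, against 15057 and 9955 CPM of its endothelial and mural markers, and to 0 CPM at P22, and TAP markers at 1602 CPM in P12 replicate 2. Their part in these levels was not tested. Grb10 had a median of 70.5 CPM there over these 3 libraries, and Asb4, an ankyrin repeat gene, 27.4 CPM. In 2 of the 3 libraries the lower end of the counting interval of each gene lay above the upper ends in every neural or glial class of at least 20 cells.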

How the results depend on the processing

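Every comparison between classes was made within libraries, with the library as block; no paired analysis by replicate number was possible because only the P12 libraries carry more than 1 number. Numbers of called members are given with the share of all genes called in parentheses. TAPs against aNSCs had 14 called members (49.0% of genes), 2 with no library block (5.44%), 9 with P12 libraries only (33.6%) and 9 with the aNSC cluster of replication genes only (40.9%). NBs against TAPs had 19 (48.5%), and 11 with no block (24%). Astrocytes against qNSCs had 17 (28.7%), and 2 with no block (3.70%). Ependymal cells against qNSCs had 7 (23.4%), 12 with no filter on low counts (17.0%), 1 with no block (3.42%) and 16 with P12 only (28.8%). Pallial against subpallial qNSCs had 10 (12.4%), 16 with no filter (10.3%) and 1 with no block (0.212%), and the same regions of aNSCs had 1 (0.938%), 2 with DESeq2 (0.724%), 3 with no filter (2.94%) and 3 with P12 only (4.24%). GLU against GABA cells had 3 (7.83%), 6 with DESeq2 (11%), 9 with no filter (8.38%), 0 with no block (0.861%), 1 with P12 only (3.01%) and 6 with NB clusters only (10.1%). The age slope in qNSCs had 0, and 1 with DESeq2 (0.686%) or with no filter (0.267%).

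With each library left out in turn the counts ranged from 11 to 15 (aNSCs against qNSCs), 9 to 14 (TAPs against aNSCs), 14 to 16 (NBs against TAPs), 12 to 18 (astrocytes), 2 to 16 (ependymal cells), 3 to 7 (oligodendroglial cells), 6 to 15 (regions of qNSCs), 1 to 3 (regions of aNSCs), 1 to 11 (GLU against GABA), 0 to 13, 0 to 12 and 0 to 5 (ages of qNSCs, aNSCs and TAPs) and 0 to 1 (regional interaction). Plain totals moved the median log2 fold change of all genes by over 0.1 in TAPs against aNSCs (to -0.163), NBs against TAPs (0.167), GLU against GABA (0.114) and the interaction (0.133); members higher and lower were then 4 and 13, 15 and 4, and 1 and 1 in the first 3.

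Among named members, 948 values under other settings kept direction and call 828 times, lost the call 112 times and changed sign 8 times, and 332 values with a library left out did so 262, 70 and 0 times. The sign changes were Meg3 in aNSCs against pallial qNSC clusters (0.18), and, with single marker thresholds, Sgce (-0.42), Peg3 (-0.10), Igf2r (0.31) and Airn (0.0202) in TAPs against aNSCs, Peg10 (1.11) and Kcnq1ot1 (-0.28) in NBs against TAPs and Meg3 in astrocytes against qNSCs (0.88). The cause of these changes was not tested. NBs against TAPs and oligodendroglial cells against aNSCs were not run with P12 libraries only. Settings chosen after the data were seen were plain totals, the replication cluster, pallial clusters, gated cells and NB clusters. Classes of few cells limit the precision of low members, and P2 and P22 have 1 library each.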

Other observations

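A cluster led by Igf1, which the marker lists did not name, held 226, 581, 459 and 122 cells at P2, P12 replicate 1, P12 replicate 2 and P22 and entered no comparison. Plagl1 had 163, 134, 164 and 43.4 CPM in these cells, against 147, 198, 191 and 53 CPM in qNSCs. Kcnq1ot1 had 63.5, 229, 238 and 78.1 CPM in them, against 23.8, 107, 102 and 51.2 CPM in qNSCs, and lay above the qNSC level in all 4 libraries. Rasgrf1 had 2.75, 0.563, 0.991 and 0 CPM in them, against 3.60, 1.93, 3.09 and 3.56 CPM in qNSCs.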
